A study of Bos taurus with 9 samples.

Results

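Outside the cell, collagens, laminins, fibrillins and proteoglycans form the basement membranes under epithelium, vessels and muscle and the looser interstitial matrix between them. Integrins hold cells to these proteins, matricellular proteins and galectins modulate that contact, and inhibitors of proteases limit the breakdown of the matrix. In the intestinal wall most of the fibrillar matrix is made by fibroblasts and smooth muscle cells, while the epithelium and endothelium add basement membrane. The genes described here are 36 members of these families, of 24616 Ensembl genes in the deposited table. They were chosen by name from 1998 readable entries of the authors' list of abundant rectal genes. The names looked for were those of collagens, laminins, alpha and beta integrins, thrombospondins, fibrillins, nidogens, emilins, EFEMP proteins, latent TGF-beta binding proteins, IGF binding proteins, TIMPs, SPARC proteins, serpins and galectins, together with BGN, OGN, PRELP, ASPN, VCAN, FN1, VIM and TNC. Of these, the nidogens, emilins, BGN, PRELP, ASPN, FN1 and TNC gave no member in the 1998 readable entries. The paper describes a longer list, and the rest of it was not searched. COL1A1, COL1A2, COL6A1 and COL6A3 were left out by the rule. Because the list was ordered by the authors' FPKM, genes of low abundance were not sampled, and a gene high in a single steer could enter through that steer. Some members are not matrix proteins in the strict sense, since VIM is an intermediate filament inside the cell and SERPINB1 and SERPINB6 are mostly intracellular.

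RNA came from rectal tissue of crossbred feedlot beef steers that either shed more than 4 log10 CFU of *E. coli* O157 per g of feces (super-shedders, SS) or were negative for it (non-shedders, NS). The counts that made a steer an SS were taken 4 to 10 days before slaughter, and not all SS still shed at that level when they were killed. The NS had been penned with SS, but the pen of each steer was not given in the sources used here, so that pen could not be entered in any test. Each steer gave 1 library, 5 from SS (274, 287, 294, 299 and 310) and 4 from NS (108, 152, 165 and 242). The phenotypes were observed and not assigned, the sources used here do not give the ages of the steers, and each library was made from powdered whole tissue of rectal biopsies, taken at a distance of 3 to 5 cm above the junction with the anal canal. The question was whether expression in this tissue differed between SS and NS.

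The deposited values were CPM, reads on a gene scaled so that all genes of a library sum to 1000000, and they are not adjusted for gene length. Levels of different genes are therefore not ranked against each other here. The recovered totals of reads on genes were 12278503, 10437925, 10655374 and 8580654 in NS 108, 152, 165 and 242. In SS 274, 287, 294, 299 and 310 they were 5412523, 11807195, 7492386, 7101669 and 11521214. SS 274, with the lowest total, also had the lowest percentage of mapped reads in the paper, and the part of this in its values was not tested. Depth did not limit the detection of any member, because the lowest number of reads for a member in a steer was 59, for LGALS4 in SS 294. That value was 7.87 CPM, with a 95% interval (exact Clopper-Pearson) of 5.99 to 10.2 CPM for counting error only. All 36 members passed the filter on low values, 0.5 CPM or more in 4 or more steers, as did 15410 genes in all. Log2 differences below are SS minus NS on log2(CPM + 0.5), each with its standard error (SE).

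SS 274, SS 294 and NS 242 stood apart in the cell types they held, as read from marker genes. Gene names were known for 2052 of the 24616 identifiers of the deposited values. They came from the authors' lists of abundant genes and of genes that differed between SS and NS in these same steers. A gene outside the readable abundant genes could be found only through the second list. Listed genes described here and below as having an identifier are those with a name known in this way. The others could not be found by name, and their values were not seen. SS 294 had a sum of 61.1 CPM over the epithelial markers with an identifier (11 of 16 listed, KRT19 with the most reads), NS 242 had 734 CPM and SS 274 had 1155 CPM. The other steers had 2653 CPM (299), 5824 CPM (165), 6270.4 CPM (108), 6341 CPM (152), 7138 CPM (310) and 7873 CPM (287). The same order was seen at the ends for KRT19 itself, with 11.5 CPM in SS 294 and 1986 CPM in SS 287. The smooth muscle markers (10 of 11, MYH11 with the most reads) summed to 57302 CPM in SS 294 and 29536 CPM in SS 299, but to 435 CPM in SS 274, 1960.1 CPM in SS 287, 2963 CPM in NS 242 and 4707 CPM in SS 310. NS 108, 152 and 165 lay between, at 11016, 11273 and 16811 CPM. The fibroblast markers (8 of 12, COL1A2 with the most reads) summed to 23871 CPM in SS 274 and 18395 CPM in SS 294, to 8188 CPM in NS 242 and to 2185 CPM in SS 287. In the remaining steers they summed to 3748 CPM (108), 5808 CPM (152), 4329 CPM (165), 5143 CPM (299) and 3739 CPM (310). Thus SS 274 was rich in fibroblast markers with little smooth muscle, SS 294 was rich in both with almost no epithelium, and SS 287 was rich in epithelium with little of either.

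Of the other marker lists, PECAM1 was the endothelial gene with an identifier (1 of 14) and ranged from 49.5 CPM in SS 287 to 348 CPM in SS 294, with 273 CPM in SS 274. RGS5, for pericytes (1 of 6), ranged from 66.5 CPM in SS 274 to 946 CPM in SS 287. The macrophage genes (4 of 10, C1QA with the most reads) summed to 1113 CPM in SS 274 and 854 CPM in NS 242, against 209.5 to 330.2 CPM in the other steers. The B cell genes MS4A1, CD22, CD79A and CD79B (4 of 7, MS4A1 with the most reads) summed to 488 CPM in NS 242 and 3.87 CPM in SS 294. All 4 B cell genes were lower in SS at an unadjusted p below 0.05 in limma, beside 3.6% of all genes tested, and none was at an adjusted p below 0.05. In 2 of them every SS was below every NS, beside 2.1% of all genes. The paper lists all 4 among its genes lower in SS, from these same steers. Their direction was thus known beforehand, and the shares of all genes are no fair background for them. For T cells CD3G (1 of 5) ranged from 2.67 CPM in SS 294 to 107 CPM in NS 242. None of the listed markers of adipocytes, squamous epithelium or enteric glia and neurons could be found by name, and these cell types were not analysed here. No marker value was 0 in any steer. In libraries of whole tissue, fewer cells of a type and less RNA per cell cannot be told apart.

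The matrix and adhesion genes varied widely between steers, and most of them more within SS than within NS. Together the 36 members held a mean of 1.15% of the reads on genes in the 4 NS (SD 0.0955) and 1.87% in the 5 SS (SD 1.17), with overlap between the groups (exact permutation test, both sides, p = 0.365). The NS were close to each other, at 1.04% (108), 1.24% (152), 1.21% (165) and 1.09% (242). The SS held 3.68% (274), 0.856% (287), 2.41% (294), 1.31% (299) and 1.11% (310), so that the highest share and the lowest share of the 9 steers were both in SS. The median SD of the members on the log2 scale was 0.42 in NS and 1.09 in SS, compared with 0.38 and 0.52 for all genes tested. The SD was larger in SS than in NS for 31 members (86.1%), and for 70.9% of all genes tested. Over the 9 steers the highest value of a member was 1.52 to 112 times the lowest, with a median of 6.82, and 9 members had a range above 10-fold. On the log2 scale the median range was 2.75 for the members and 1.55 for all genes tested. It was 1.26 for the other 1960 genes from the readable entries of the list of abundant genes.

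**Figure D1:**
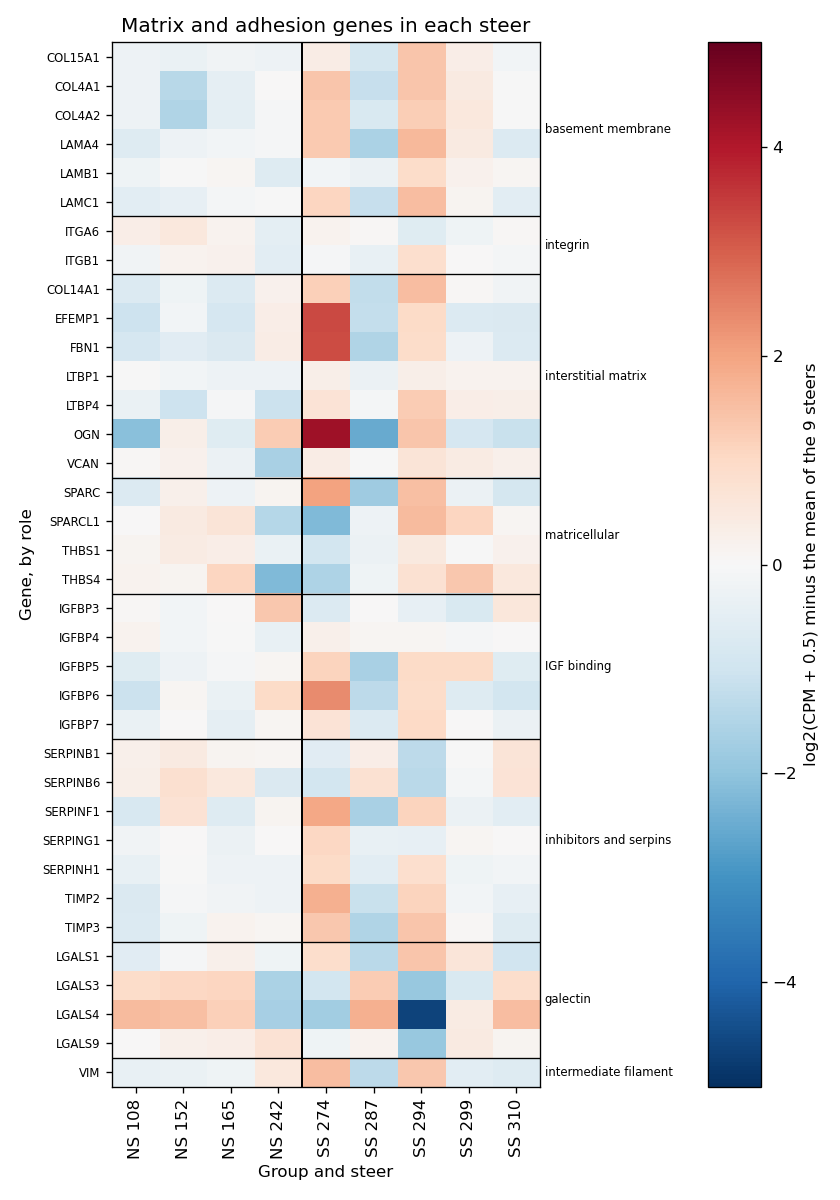
Each row is a gene, ordered by role, and each column a steer. The colour is log2(CPM + 0.5) minus the mean of the 9 steers for that gene. The SS 274 and SS 294 columns are mostly red and the SS 287 column mostly blue, with 13, 15 and 2 members at their highest there, and the galectins LGALS3 and LGALS4 have the opposite pattern.

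The highest value of a member was in SS 294 for 15 members and in SS 274 for 13, beside 17.4% and 11.9% of all genes tested. SS 287 had the lowest value for 18 members, beside 24.8% of all genes. SS 294 also had the lowest value for 7 members and NS 242 for 6, beside 29.7% and 8.62% of all genes. Against the range of the 4 NS, SS 274 was above the highest NS in 24 members and SS 294 in 25, and the numbers were 14 for SS 299, 8 for SS 310 and 2 for SS 287. The shares of all genes were 19.5% (274), 24.7% (294), 20.6% (299), 17.6% (310) and 12.03% (287). SS 287 was below the lowest NS in 19 members, compared with 8 in SS 294, 7 in SS 274, 4 in SS 310 and 3 in SS 299. Of all genes 39.2% (287), 43.4% (294), 39.2% (274), 19.0% (310) and 20.7% (299) were below the lowest NS. The median deviation of the members from their means was 0.80 on the log2 scale in SS 274, 0.94 in SS 294 and -0.61 in SS 287. For all genes tested it was -0.15, -0.15 and -0.16 in the same steers. The sums of the fibroblast markers were highest in SS 274 and 294 and lowest in SS 287 as well, and their part in these values was not tested.

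With limma no member was called different between SS and NS (adjusted p under 0.05 with an absolute log2 difference over 1), and 0% of the 15410 genes tested were called. The lowest adjusted p was 0.928 among the members and 0.234 among all genes. At an unadjusted p below 0.05 there was 1 member, LTBP4, which was higher in SS, beside 0.357% of all genes that were higher, 3.6% that were lower and 3.96% in either direction. With edgeR and DESeq2 on the recovered reads 0 members were called, and 4 (COL4A1, COL4A2, LTBP1 and LTBP4) and 6 (the same with EFEMP1 and FBN1) were below an unadjusted p of 0.05. Over all genes that share was 3.87% with edgeR (1.56% higher in SS) and 5.82% with DESeq2 (3.23% higher in SS). In 0 members were the SS and NS values apart, compared with 2.26% of all genes (0.162% higher and 2.1% lower in SS). The log2 difference was above 0 in 28 of the 36 members (77.8%) and in 35.2% of all genes, with medians of 0.29 and -0.13. The share of all genes depended on the scaling. It was 45.9% with TMM scaling, 51.1% with median-of-ratios scaling, 53.0% with edgeR and 55.7% with DESeq2, with 28 members above 0 in each of these. Among the other 1960 genes from the readable entries of the same list of abundant genes, 25.4% were above 0 and the median was -0.18. Of the fibroblast markers 7 of 8 were above 0, with a median of 0.40, and of the epithelial markers 11 of 11 were below 0, with a median of -1.24. Of the smooth muscle markers 2 of 10 were above 0 and 8 below, with a median of -0.53. Their part in the members' differences was not tested. The member differences ranged from -1.18 for LGALS4 to 1.14 for LTBP4. Without SS 274 or without SS 294, 21 of the 36 members were above 0 in either case, beside 34.8% and 35.5% of all genes. SS 274 and 294 together held the highest value of most members, so leaving out both, a choice made after seeing the data, favoured lower differences in those members. It need not lower all of them. The difference of SPARCL1, highest in SS 294 and lowest in SS 274, went from 0.14 to 0.38. In the 7 steers that remained 15 of the 36 members were above 0 and the median was -0.10, close to the -0.08 of all genes. The highest of these 15 were LTBP4 at 0.81, THBS4 at 0.76, VCAN at 0.64, LGALS4 at 0.60 and COL4A2 at 0.49.

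SS 287, the lowest steer for 18 members, differed from the other SS. In 5 members, COL4A2, COL15A1, LTBP1, LTBP4 and VCAN, all SS but 287 were above the highest NS, beside 1.23% of all genes with these 4 SS above every NS. Leaving out SS 287, a steer singled out for its low values, had to raise the differences of the members that were lowest there. In the 8 steers that remained, 6 members (COL4A1, COL4A2, COL14A1, COL15A1, LTBP1 and LTBP4) were below an unadjusted p of 0.05 in limma and higher in SS, beside 2.14% of all genes. Their lowest adjusted p was 0.595. SS 287 was the steer with the lowest fibroblast sum and the highest epithelial sum, and the part of these in the result was not tested.

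The basement membrane was represented by 6 genes, and in all 6 the log2 difference was above 0, from 0.36 to 1.03 with a median of 0.49. Without SS 294 the median was 0.18, without SS 287 it was 0.88, and without SS 274 and 294 it was 0.12 with 4 of 6 above 0. COL4A1 and COL4A2 encode the chains of the most widespread type IV collagen, the network of every basement membrane. COL4A2 (ENSBTAG00000025210) was at 158, 66.7, 134 and 183 CPM in NS 108, 152, 165 and 242 and at 463, 112, 442, 273 and 186 CPM in SS 274, 287, 294, 299 and 310. All SS but 287 were thus above the highest NS, although SS 310 exceeded NS 242 only narrowly. The mean of the 4 NS was 135 ± 49.9 CPM (SD) and that of the 5 SS 295 ± 155 CPM (SD). COL4A2 had a log2 difference of 1.03 (SE 0.46; exact permutation test, p = 0.111; limma, unadjusted p = 0.0505). This unadjusted p was below 0.05 with no filter, with at least 1 CPM in all steers, with median-of-ratios or TMM scaling, with sample quality weights, with edgeR and with DESeq2, and without NS 242, SS 287 or SS 310. The difference was 0.72 without NS 152 and 0.49 without SS 274 and 294. COL4A1 (ENSBTAG00000012849) was at 304, 138, 259.9 and 362 CPM in the NS and 937, 161, 949, 493 and 349.5 CPM in the SS, in the same order of steers. Its log2 difference was 0.93 (SE 0.53), 0.64 without NS 152 and 0.27 without SS 274 and 294, and 1.32 without SS 287.

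COL4A1 and COL4A2 are neighbours on chromosome 12 with no other protein-coding gene between them in the RefSeq annotation of assembly ARS-UCD2.0. Their CPM kept nearly the same ratio in all steers but SS 287, where it was lower. COL4A1 had 1.93, 2.08, 1.95 and 1.98 times the CPM of COL4A2 in NS 108, 152, 165 and 242, and 2.02, 1.44, 2.15, 1.81 and 1.88 times in SS 274, 287, 294, 299 and 310. The SD of the log2 ratio was 0.17, the second lowest of the 630 pairs of members, whose median was 0.98. The lowest, 0.15, was that of the integrin gene ITGB1 and the laminin gene LAMB1, which lie on different chromosomes, and this pair was singled out after its values were seen. ITGB1 had 2.65 times (SS 299) to 3.57 times (NS 152) the CPM of LAMB1.

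Laminins are trimers of an alpha, a beta and a gamma chain. LAMA4 (ENSBTAG00000008817), whose alpha chain is found in the basement membranes of vessels and muscle, was at 262, 345, 368 and 390.2 CPM in NS 108, 152, 165 and 242 and at 996, 134, 1250.2, 555 and 254 CPM in SS 274, 287, 294, 299 and 310. The NS lay within a narrow range, with SS 274, 294 and 299 above it and SS 287 and 310 below it. The log2 difference of LAMA4 was 0.48 (SE 0.61), but 0.13 without SS 294, 0.22 without SS 274, 0.94 without SS 287 and 1.09 with DESeq2. LAMC1 (ENSBTAG00000011966), the common gamma chain, ranged from 123 CPM in SS 287 to 805 CPM in SS 294 with a log2 difference of 0.49 (SE 0.50) that was 0.15 without SS 294 and 0.83 without SS 287. It was 0.99 with DESeq2, 0.95 with edgeR and 0.22 with sample quality weights. The range was narrower for LAMB1 (ENSBTAG00000011412), from 183 CPM in NS 242 to 546 CPM in SS 294, and its difference was 0.36 (SE 0.27), or 0.17 without SS 294. The beta and gamma chains did not keep the close ratio of the collagen chains. LAMB1 had 0.455 times the CPM of LAMC1 in SS 274 and 1.89 times in SS 287, with an SD of the log2 ratio of 0.67, rank 165 of the 630 pairs. In the NS the ratio was 1.32, 1.37 and 1.19 in steers 108, 152 and 165 and 0.682 in steer 242. In SS 294, 299 and 310 it was 0.678, 1.13 and 1.60.

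COL15A1 (ENSBTAG00000010082), a collagen that ties basement membranes to the matrix beneath, was the member with the most even values among NS. It was at 280.5, 268, 298 and 281 CPM in NS 108, 152, 165 and 242, an SD of 0.06 on the log2 scale, and at 436, 185, 884, 421 and 304 CPM in SS 274, 287, 294, 299 and 310. Of the SS only 287 was below the NS and the others were above them, with an SD of 0.82. The log2 difference was 0.47 (SE 0.38; exact permutation test, p = 0.270), and it was 0.18 without SS 294 and 0.74 without SS 287. With DESeq2 it was 0.83 and with edgeR 0.80.

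**Figure D2:**
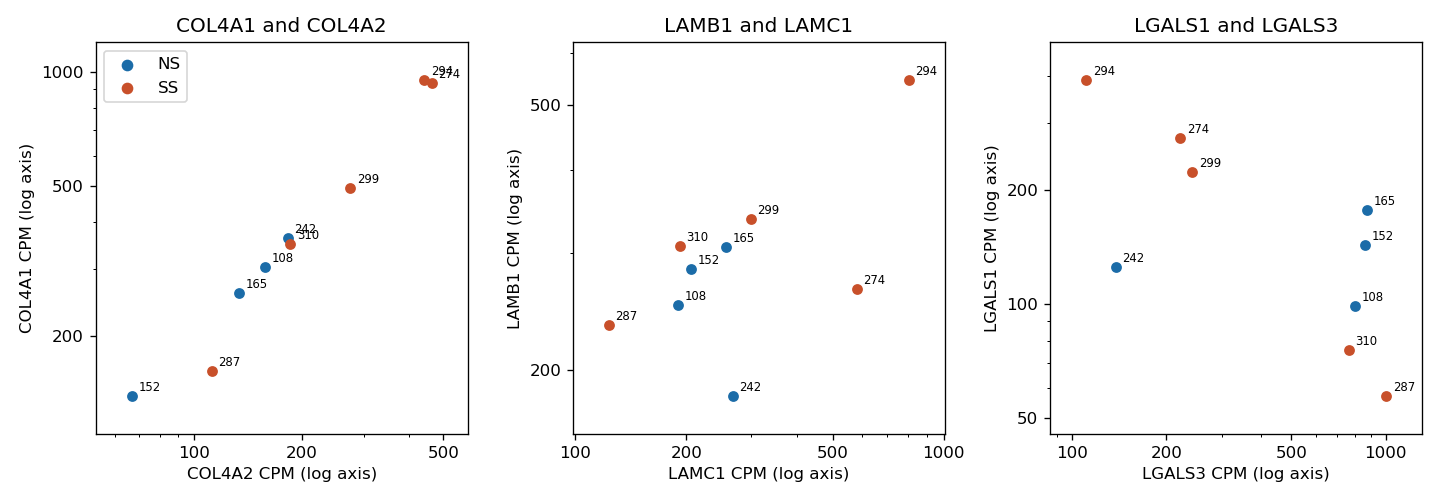
Each point is a steer, with the CPM of the genes of a pair on log axes (blue, NS, and red, SS). COL4A1 and COL4A2 lie along a line, with ratios of 1.44 to 2.15, LAMB1 and LAMC1 are scattered, and LGALS1 and LGALS3 keep no common ratio, with values of 0.0571 to 3.51.

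The integrin genes among the members were ITGB1, the beta chain shared by most receptors for collagen and laminin, and ITGA6, the alpha chain of laminin receptors that epithelial cells carry on their basal side. ITGB1 (ENSBTAG00000015910) was at 793, 1013, 1028 and 611 CPM in NS 108, 152, 165 and 242 and at 866, 679, 1607, 897 and 824 CPM in SS 274, 287, 294, 299 and 310. Apart from SS 294 all SS lay within the range of NS, and the log2 difference was 0.14 (SE 0.28; exact permutation test, p = 0.698). It was -0.05 without SS 294 and -0.01 without NS 242. ITGA6 (ENSBTAG00000017266) was at 381, 442, 347 and 218 CPM in the NS and 348, 317, 201, 262 and 322 CPM in the SS. The lowest values of ITGA6 were those of SS 294 and NS 242, which also had the lowest sums of epithelial markers. SS 274 was outside this order, with a low epithelial sum of 1155 CPM but the highest ITGA6 of the SS. The part of the epithelial markers in these values was not tested. The log2 difference of ITGA6 was -0.24 (SE 0.25; exact permutation test, p = 0.397), and it was -0.11 without SS 294 or without NS 152 and -0.45 without NS 242.

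The 7 interstitial matrix genes all had a log2 difference above 0, with a median of 0.74. Without SS 274 the median was 0.25 and 6 were above 0, and without SS 274 and 294 it was -0.11 and 3 were above 0. The median was 1.14 without SS 287, 1.28 with edgeR, 1.31 with DESeq2 and 0.51 with sample quality weights. LTBP4 (ENSBTAG00000004757) encodes a latent TGF-beta binding protein, which anchors the inactive growth factor to microfibrils and takes part in the assembly of elastic fibres. It was at 232, 141, 278 and 139 CPM in NS 108, 152, 165 and 242 and at 473, 269.7, 712, 373 and 361 CPM in SS 274, 287, 294, 299 and 310. All SS but 287 were above the highest NS, and SS 287 lay just below NS 165. The mean of the 4 NS was 197 ± 69.0 CPM (SD) and that of the 5 SS 438 ± 169 CPM (SD). The log2 difference was 1.14 (SE 0.32; exact permutation test, p = 0.0317), and the spread was similar in SS and NS (SD of 0.52 and 0.51 on the log2 scale). The adjusted p over all genes was 0.928 in limma and from 0.205 (DESeq2) to 0.9999 in the alternatives. The difference of LTBP4 stayed above 0 without any single steer, from 0.94 to 1.32, and without SS 274 and 294 together it was 0.81 (SE 0.29). After scaling by median-of-ratios, which moved the median of all genes from -0.13 to 0.01, it was 1.28, and every SS was above every NS. With sample quality weights it was 0.72 (SE 0.27).

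LTBP1 (ENSBTAG00000019839), of the same family, had the smallest fold range of any member over the steers. It was at 276, 253, 229 and 234 CPM in the NS and 336, 225, 343, 313 and 310.1 CPM in SS 274, 287, 294, 299 and 310. Again SS 287 alone was not above the NS, and the log2 difference was 0.29 (SE 0.17; exact permutation test, p = 0.0952). VCAN (ENSBTAG00000014906), the large hyaluronan-binding proteoglycan versican, was at 472, 519, 374 and 145 CPM in the NS and 581, 448, 699, 607 and 542 CPM in the SS. The SS were alike, with an SD of 0.23 on the log2 scale against 0.84 in NS, where steer 242 was low. The log2 difference of VCAN was 0.74 (SE 0.36; exact permutation test, p = 0.0635) and 0.34 without NS 242.

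OGN, FBN1 and EFEMP1 had their highest values by far in SS 274. OGN (ENSBTAG00000011824) encodes osteoglycin, a small leucine-rich proteoglycan. It was at 38.4, 202, 109 and 398 CPM in NS 108, 152, 165 and 242 and at 3193, 28.5, 438, 92.4 and 77.6 CPM in SS 274, 287, 294, 299 and 310, the widest range of any member. SS 274 held 83.4% of the summed SS values of OGN, while 3 SS lay below NS 165. The log2 difference was 0.53 (SE 1.27; exact permutation test, p = 0.794) and turned to -0.47 without SS 274 and to -0.07 without NS 108, but was 2.29 with DESeq2 and 2.26 with edgeR. FBN1 (ENSBTAG00000002278) encodes fibrillin 1, the core of microfibrils to which LTBP proteins bind. It was at 858, 1017, 932 and 1973 CPM in the NS and at 14551, 545, 2858, 1297 and 953 CPM in the SS. FBN1 alone took 1.46% of all reads on genes in SS 274, with a 95% interval (exact Clopper-Pearson) of 1.45% to 1.47% for counting error only, and 0.286% in SS 294. SS 274 held 72.0% of the summed SS values of FBN1 and 73.3% of those of EFEMP1 (ENSBTAG00000017448), which encodes fibulin 3. EFEMP1 was at 1914 CPM in SS 274 and 84.8 to 375 CPM in the other steers. The log2 differences of FBN1 and EFEMP1 were 0.79 (SE 0.84) and 0.76 (SE 0.84), and they were 0.07 and 0.02 without SS 274. With DESeq2 both were 1.99, at an unadjusted p below 0.05, and with edgeR they were 1.97 and 1.96. COL14A1 (ENSBTAG00000013369), a collagen on the surface of fibrils, ranged from 110.3 CPM in SS 287 to 755 CPM in SS 294 and had a log2 difference of 0.62 (SE 0.52), 0.30 without SS 294, 0.39 without SS 274 and 1.08 with DESeq2.

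**Figure D3:**
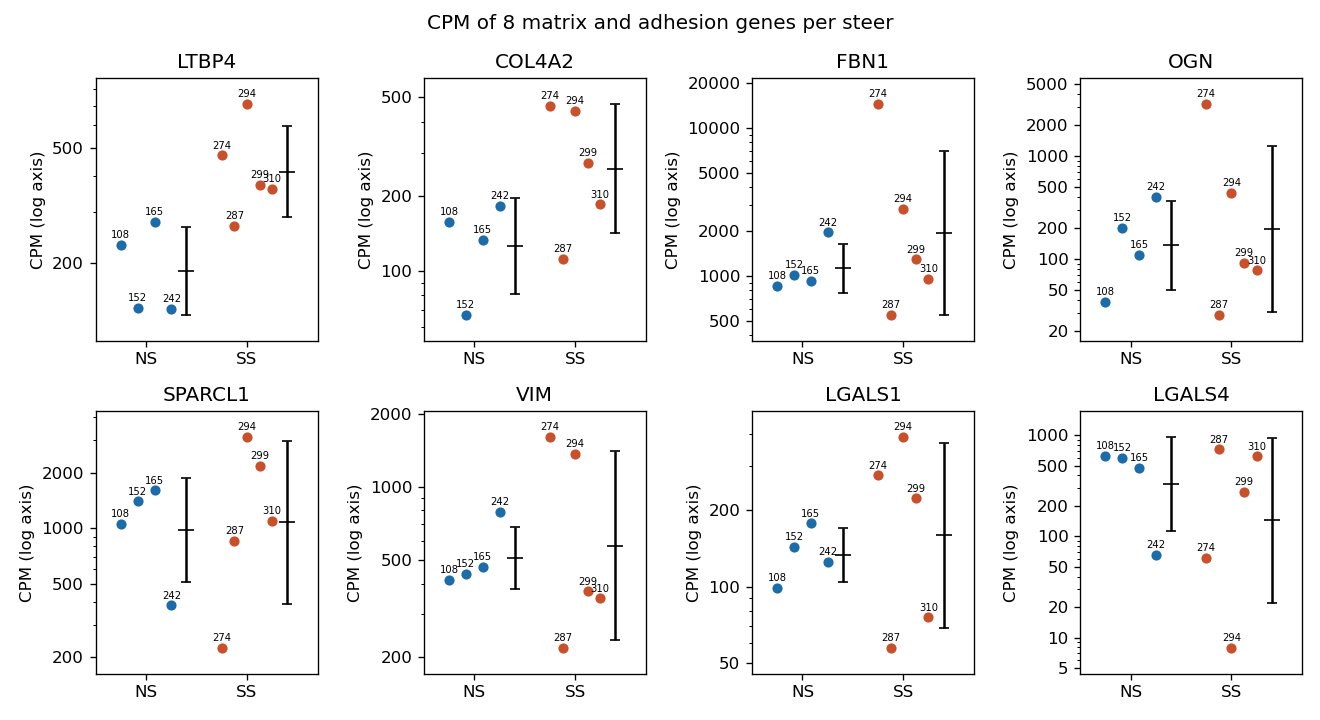
Points are the CPM of each steer on a log axis (blue, NS, and red, SS, with steer numbers), and the bar beside each group is the mean ± SD of log2(CPM + 0.5) drawn on the same axis. For LTBP4 and COL4A2 all SS but 287 lie above the NS, for FBN1 and OGN steer 274 lies far above the rest at 14551 and 3193 CPM, and for LGALS4 steer 294 lies far below at 7.87 CPM.

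The 4 matricellular genes differed from each other in which steers were high. SPARC (ENSBTAG00000014835), which binds collagen and guides its assembly, was at 4684 CPM in SS 274 and 3282 CPM in SS 294 but at 339 CPM in SS 287, against 727 to 1387 CPM in the NS. SPARCL1 (ENSBTAG00000004094), its relative, was at 1055, 1400.0, 1604 and 382 CPM in NS 108, 152, 165 and 242 and at 224, 853, 3123, 2182 and 1093 CPM in SS 274, 287, 294, 299 and 310. SS 274, where SPARC was highest, therefore had the lowest value of SPARCL1. THBS4 (ENSBTAG00000012866), a thrombospondin of muscle and connective tissue, was likewise low in SS 274 and NS 242, with 50.6 and 31.2 CPM, and between 125 and 374 CPM in the other steers. THBS1 (ENSBTAG00000002006), an activator of latent TGF-beta, was at 363, 439.9, 422 and 262 CPM in the NS and 175, 269, 459.9, 325 and 381 CPM in the SS, again lowest in SS 274 and NS 242. The sums of smooth muscle markers were 435 CPM in SS 274 and 2963 CPM in NS 242, and highest in SS 294 and 299, where SPARCL1 was also highest. SS 287 was outside this order, with a sum of 1960.1 CPM, below that of NS 242, but 853 CPM of SPARCL1 and 125 CPM of THBS4, both above NS 242. The part of the smooth muscle markers in these values was not tested. The log2 differences were 0.25 (SE 0.73) for SPARC, 0.14 (SE 0.74) for SPARCL1, 0.39 (SE 0.72) for THBS4 and -0.25 (SE 0.29) for THBS1. None of these differences was unusual among those of all divisions of the steers (exact permutation tests, p = 0.778, 0.873, 0.619 and 0.476). The directions of 3 of them turned on single steers. SPARC was at -0.23 without SS 274 and -0.10 without SS 294, SPARCL1 at -0.31 without NS 242, -0.25 without SS 294 and -0.12 without SS 299, and THBS4 at -0.28 without NS 242. THBS1 was at -0.05 without SS 274 and -0.41 without NS 242.

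The IGF binding proteins hold insulin-like growth factors in the matrix or in solution. Of these genes 5 were members, and 4 had a log2 difference above 0. IGFBP3 (ENSBTAG00000003994) was the exception, at 190.4, 167, 186 and 467 CPM in NS 108, 152, 165 and 242 and at 113, 187, 136, 108 and 269 CPM in SS 274, 287, 294, 299 and 310. NS 242 was far above the other NS, and SS 274, 294 and 299 were below all of them. The log2 difference was -0.58 (SE 0.37; exact permutation test, p = 0.206) and -0.24 without NS 242. IGFBP6 (ENSBTAG00000021467) was at 15.6, 35.9, 26.6 and 65.6 CPM in the NS and 178, 13.3, 64.1, 21.5 and 18.0 CPM in the SS. SS 274 held 60.3% of the summed SS values of IGFBP6, and SS 294 was within the range of NS. Its log2 difference was 0.19 (SE 0.75; exact permutation test, p = 0.873), and it was -0.38 without SS 274, -0.14 without NS 108 and -0.02 without SS 294. IGFBP5 (ENSBTAG00000007062) was at 115, 103 and 104 CPM in SS 274, 294 and 299 and at 16.9 to 55.9 CPM in the other steers, with a log2 difference of 0.37 (SE 0.55) that was 0.13 without SS 274 and 0.82 without SS 287. IGFBP7 (ENSBTAG00000019368), which is abundant in vessel walls, ranged from 127 CPM in SS 287 to 408 CPM in SS 294 with a log2 difference of 0.30 (SE 0.34) that was 0.09 without SS 294 and 0.51 without SS 287. IGFBP4 (ENSBTAG00000008611) was nearly level, from 132 CPM in NS 242 to 202 CPM in SS 274, with a log2 difference of 0.17 (SE 0.15), or 0.08 without NS 242. None of the 9 other genes listed for the IGF axis could be found by name, and they were not analysed here.

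Among the inhibitors and serpins, TIMP2 and TIMP3 inhibit matrix metalloproteinases. TIMP2 (ENSBTAG00000010899) ranged from 48.3 CPM in SS 287 to 364 CPM in SS 274 and TIMP3 (ENSBTAG00000020638) from 70.1 CPM in SS 287 to 514 CPM in SS 294. Their log2 differences were 0.55 (SE 0.54) and 0.28 (SE 0.57). That of TIMP2 was 0.16 without SS 274, 0.89 without SS 287 and 1.10 with DESeq2, and that of TIMP3 was -0.03 without SS 294 and -0.02 without SS 274. SERPINH1 (ENSBTAG00000001027), the collagen chaperone of the endoplasmic reticulum, was at 117, 153, 128 and 128 CPM in NS 108, 152, 165 and 242 and at 297, 107, 275, 132 and 139 CPM in SS 274, 287, 294, 299 and 310. SS 274 and 294 were the ones above the NS, and the log2 difference was 0.41 (SE 0.32; exact permutation test, p = 0.381), or 0.22 without SS 274 and 0.25 without SS 294. SERPINF1 (ENSBTAG00000009705), which encodes the secreted anti-angiogenic factor PEDF, was at 30.6, 88.7, 34.5 and 58.7 CPM in the NS and 209, 17.2, 118, 43.4 and 36.9 CPM in the SS. The same pair of SS was above the NS and SS 287 below them, with a log2 difference of 0.27 (SE 0.68; exact permutation test, p = 0.746) that was -0.19 without SS 274. SERPING1 (ENSBTAG00000016267), the inhibitor of complement C1, was at 458 CPM in SS 274 and 169 to 239.9 CPM in all other steers, with a log2 difference of 0.20 (SE 0.28) that was -0.04 without SS 274.

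The intracellular serpins ran the other way. SERPINB6 (ENSBTAG00000025280) ranged from 58.6 CPM in SS 294 to 259 CPM in NS 152, and SERPINB1 (ENSBTAG00000011975), an inhibitor of neutrophil proteases, from 11.1 CPM in SS 294 to 44.2 CPM in SS 310. These genes lie near each other on chromosome 23, with 2 protein-coding genes between them in the same RefSeq annotation. Their log2 differences were -0.42 (SE 0.49) and -0.41 (SE 0.37). Without SS 294 both were -0.13, and without SS 274 and 294 they were 0.22 and 0.09.

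Galectins are lectins that bind galactose-containing sugars on cell surfaces and in the matrix. LGALS4 (ENSBTAG00000016312), a galectin of the intestinal epithelium, was at 623, 593, 476 and 65.8 CPM in NS 108, 152, 165 and 242 and at 61.7, 722, 7.87, 277 and 614 CPM in SS 274, 287, 294, 299 and 310. The values followed no group, since SS 294 and 274 and NS 242 were low and SS 287 was the highest. The sums of epithelial markers were also lowest in these 3 steers and highest in SS 287, and their part in the result was not tested. The log2 difference of LGALS4 was -1.18 (SE 1.31; exact permutation test, p = 0.492), and it was -0.15 without SS 294, 0.60 without SS 274 and 294, -0.28 with DESeq2 and -0.30 with edgeR. LGALS9 (ENSBTAG00000006846), which binds receptors on immune cells, was at 70.9, 83.9, 87.6 and 114 CPM in the NS and 60.2, 79.4, 18.4, 96.7 and 77.7 CPM in the SS. SS 274 and 294 were below all NS, and the log2 difference was -0.59 (SE 0.44; exact permutation test, p = 0.222), but -0.18 without SS 294 and -0.29 with DESeq2.

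LGALS3 (ENSBTAG00000002326), which epithelial cells and macrophages express, was at 795, 856, 869.8 and 138 CPM in the NS and at 222, 1001, 111, 242 and 761 CPM in the SS. LGALS1 (ENSBTAG00000015089), the galectin of mesenchymal cells, was at 99.0, 143, 178 and 125 CPM in the NS and 275, 57.2, 389.7, 223 and 75.7 CPM in the SS. The steers low in LGALS3 were SS 274, 294 and 299 and NS 242, and the 3 SS among them had the highest LGALS1. The CPM of LGALS1 was 0.0571 times that of LGALS3 in SS 287 and 3.51 times in SS 294, an SD of the log2 ratio of 2.01, rank 565 of the 630 pairs. It was 0.125, 0.167, 0.204 and 0.906 times in NS 108, 152, 165 and 242 and 1.24, 0.920 and 0.0994 times in SS 274, 299 and 310. The log2 differences were -0.65 (SE 0.76) for LGALS3 and 0.26 (SE 0.55) for LGALS1. Neither was unusual among those of all divisions of the steers (exact permutation tests, p = 0.524 and 0.698). The difference of LGALS1 was -0.06 without SS 294. That of LGALS3 was -0.25 without SS 294, -1.30 without NS 242 and 0.09 without SS 274 and 294.

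VIM (ENSBTAG00000018463), the intermediate filament of mesenchymal cells, was at 416, 437, 468 and 788 CPM in NS 108, 152, 165 and 242 and at 1605, 217, 1367, 372 and 348 CPM in SS 274, 287, 294, 299 and 310. SS 274 and 294 were above all NS, and the other 3 SS were below all NS. The log2 difference was 0.17 (SE 0.60; exact permutation test, p = 0.841). It was -0.20 without SS 274 and -0.14 without SS 294. Without both it was -0.74, with every remaining SS below every NS. The fibroblast sums were likewise highest in SS 274 and 294, and their part in the result was not tested.

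Other genes of the same pathways, listed by function and with an identifier, gave no call either. Of other matrix proteins 11 of 42 had an identifier, and 10 of the 11 had a log2 difference above 0, with a median of 0.43. The median was 0.21 without SS 294, 0.97 without SS 287 and 1.23 with DESeq2. DCN, the proteoglycan decorin and the gene of this list with the most reads, was at 404, 1009, 688 and 1158 CPM in NS 108, 152, 165 and 242 and at 4628, 316, 2137, 665 and 494 CPM in SS 274, 287, 294, 299 and 310. Its log2 difference was 0.41 (SE 0.75; exact permutation test, p = 0.683). SS 274 and 294 were above all NS and SS 287 below them, as for COL14A1, EFEMP1, FBN1 and OGN, and the median of the list was -0.08 without SS 274 and 294. Of genes for collagen processing 8 of 24 had an identifier, 5 were above 0 and 3 below, and the median was 0.15. The most read of these, P4HB, a subunit of prolyl 4-hydroxylase and a disulfide isomerase, ranged from 240.4 CPM in SS 294 to 1055 CPM in SS 310, with a log2 difference of -0.32 (SE 0.46). Of matrix proteases 7 of 24 had an identifier, 5 were above 0 and 2 below, and the median was 0.02. CTSS, the lysosomal cathepsin S with the most reads in this list, ranged from 148 CPM in SS 294 to 686 CPM in NS 152, with a log2 difference of -0.30 (SE 0.43).

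The partners of integrins in adhesion included 17 genes with an identifier of 37 listed, of which 13 were above 0 and 4 below, with a median of 0.12. FLNA, a filamin that links integrins to actin, was at 3376, 2800.4, 4805 and 1622 CPM in NS 108, 152, 165 and 242 and at 899, 959, 17647, 9739 and 2223 CPM in SS 274, 287, 294, 299 and 310. SS 294 and 299 were highest and SS 274 and 287 lowest, which were also the steers at the ends of the smooth muscle sums, and the part of these was not tested. The log2 difference of FLNA was 0.12 (SE 0.91; exact permutation test, p = 0.937). Of the TGF-beta pathway 5 of 15 genes had an identifier, 3 above 0 and 2 below, with a median of 0.04. SKIL, a repressor of SMAD signalling, was the gene with an unadjusted p below 0.05 among the 48 of these lists, beside 3.96% of all genes, at 134, 139, 109.7 and 128 CPM in the NS and 111, 117, 76.3, 100.4 and 86.8 CPM in the SS. SS 274 and 287 lay between the lowest and highest NS and the other SS were below all NS, with a log2 difference of -0.39 (SE 0.17; exact permutation test, p = 0.0476) and an adjusted p of 0.928 in limma. The difference of SKIL was -0.24 with median-of-ratios scaling, -0.25 with edgeR and -0.22 with DESeq2. TGFBR2, the type II receptor with the most reads in the list, ranged from 181 CPM in NS 152 to 504 CPM in SS 274, with a log2 difference of 0.12 (SE 0.33).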

How the data were processed

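Stranded libraries of total RNA, depleted of rRNA, were sequenced by the authors, who deposited CPM per Ensembl gene for each of the 9 steers. The submitters' processing notes name TopHat2, HTSeq, edgeR and the build UMD3.1, and the paper names Tophat2 for mapping. The role of each tool in counting reads and scaling them to CPM was not given in the sources used here, nor was a batch. All columns were used and 0 were left out. Within 0.01 reads, 100% of the deposited CPM were multiples of the value of 1 read, so reads were recovered. The paper's test of FPKM needs values not used here. Instead limma 3.58.1 (R 4.3.3, eBayes with intensity trend) was fitted to log2(CPM + 0.5), with Benjamini-Hochberg adjustment over all 15410 genes that passed the filter, and it was tested on simulated data. There it recovered 48.21% of the genes changed 4-fold, with 4 false calls, and 95.29% of those changed 16-fold, with 15. Exact permutation tests on both sides used all 126 divisions of the steers, with 0.0159 as their smallest possible p. Alternatives were pseudocounts of 0.1 and 1, no filter, at least 1 CPM in all steers, median-of-ratios and TMM scaling, sample quality weights, the adjusted p alone, edgeR 4.0.16 (quasi-likelihood) and DESeq2 1.42.0 on the recovered reads, and the omission of each steer. Omission of SS 274 and 294 together was chosen after seeing the data. Summaries and figures used Python 3.11.15 with pandas 2.3.3, numpy 2.4.6, scipy 1.17.1 and matplotlib 3.10.9.

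All members were named. Values of every steer were to be given for the member of each role with the smallest p and with the widest range, for any member with an unadjusted p below 0.05 or groups apart, and pairs were compared for COL4A1 and COL4A2, LAMB1 and LAMC1, and LGALS1 and LGALS3. The steer values of COL15A1, LTBP1, VCAN and FBN1 were added after they were seen. From the other lists, genes with an unadjusted p below 0.05 or groups apart and the gene with the most reads were named. Members and lists were chosen with earlier results of these data known. Symbols were available for 2052 identifiers, and all 36 members were matched to RefSeq genes (ARS-UCD2.0), used for neighbours only because the build differs.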

Additional observations from a re-analysis of the deposited data

Results flagged for a closer look

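In 10 of the 74 groups of values tested, a group being the NS or the SS values of a member or of the members' summed share, the most extreme steer was far from the others, its gap to the nearest being a large part of the range of the group in CPM. Chance alone gives about 1 in 20 such groups, and the genes share steers, so the groups are not independent, and CPM are skewed. On the scale of log2(CPM + 0.5) 3 of these 10 remained (LGALS3 and IGFBP3 in NS and LTBP1 in SS), none of them by SS 274, and 2 were added (LGALS4 in NS and LGALS9 in SS). NS 242 was the extreme steer in all 4 NS groups found on CPM. It was the lowest for LGALS3, at 138 CPM (gap 0.898 of the range), and the highest for IGFBP3 at 467 CPM (0.921), VIM at 788 CPM (0.860) and FBN1 at 1973 CPM (0.857). SS 274 was the extreme steer in 4 of the 6 SS groups found on CPM, as the highest for OGN at 3193 CPM (0.870), EFEMP1 at 1914 CPM (0.842), FBN1 at 14551 CPM (0.835) and SERPING1 at 458 CPM (0.754). SS 294 was the highest for ITGB1, at 1607 CPM (0.765). SS 287 was the lowest for LTBP1, at 225 CPM (0.721).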

How the results depend on the processing

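No paired analysis was possible because no steer is in both groups and the pen of each steer was not given in the sources used here. Of the 36 members, 25 kept the direction of their log2 difference under all 18 alternatives that kept at least 4 of the SS and 12 when SS 274 and 294 were also left out together. No member changed direction under other pseudocounts, filters, median-of-ratios or TMM scaling, edgeR or DESeq2. Of all genes, 0 were called under every such alternative other than DESeq2 (19 genes), sample quality weights (2 genes) and single steers left out (0 to 1), and no member was among them. Members with an unadjusted p below 0.05, 1 as reported, numbered 6 with DESeq2 (5.82% of all genes), 4 with edgeR (3.87%), 4 with median-of-ratios scaling (2.98%), 4 with sample quality weights (5.73%), 3 with TMM scaling (3.11%), 2 with no filter (3.95%), 2 with at least 1 CPM in all steers (4.21%), 2 without SS 274 and 294 (2.16%) and 1 to 6 with single steers left out, 6 being without SS 287 (7.68%). LTBP4 was among them each time. Members with groups apart, 0 as reported, numbered 1 with TMM scaling and 1 with median-of-ratios scaling (LTBP4 in both, beside 0.344% and 0.487% of all genes higher in SS), 1 without SS 274 and 294 (VIM, beside 3.97% lower in SS) and 0 to 5 with single steers left out. The 5 were those in which SS 287 alone was not above the NS, so its omission set them apart (1.23% of all genes higher in SS). The median log2 difference of the members, 0.29 as reported, was 0.74 with DESeq2, 0.71 with edgeR, 0.44 with median-of-ratios scaling, 0.39 with TMM scaling, 0.18 with sample quality weights, 0.10 to 0.56 with single steers left out and -0.10 without SS 274 and 294. Median-of-ratios scaling changed the genes higher in SS at an unadjusted p below 0.05 from 0.357% of all genes to 1.25%, out of 3.96% and 2.98% in either direction.

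With DESeq2 the log2 difference was further from 0 than as reported in most members above 0, among them 0.94 for IGFBP6, 0.33 for ITGB1, 0.75 for LGALS1, 0.86 for SERPINF1, 0.45 for SERPING1, 1.05 for SPARC, 0.55 for SPARCL1, 0.83 for TIMP3 and 0.78 for VIM, and nearer to 0 in members below it, among them -0.12 for ITGA6, -0.38 for LGALS3, -0.15 for SERPINB1, -0.17 for SERPINB6 and -0.07 for THBS1. Also with DESeq2, the differences of IGFBP4, IGFBP5, IGFBP7, LAMB1 and SERPINH1 were 0.32, 0.84, 0.59, 0.55 and 0.70. The list medians with DESeq2 were 0.20 for the TGF-beta pathway, 0.25 for collagen processing, 0.40 for integrin partners, 0.25 for matrix proteases and 1.23 for other matrix proteins. With sample quality weights the log2 difference turned to -0.01 for IGFBP6, -0.12 for ITGB1, -0.03 for LGALS1, -0.04 for SPARC, -0.06 for SPARCL1, -0.03 for THBS4, -0.04 for TIMP3 and -0.08 for VIM, and the list medians turned to -0.0017 for the TGF-beta pathway, -0.18 for collagen processing and -0.03 for matrix proteases. Without SS 274 and 294 the difference turned below 0 in 17 members, to -0.11 for COL14A1, -0.44 for EFEMP1, -0.36 for FBN1, -0.21 for IGFBP5, -0.85 for IGFBP6, -0.16 for IGFBP7, -0.08 for ITGB1, -0.34 for LAMA4, -0.25 for LAMC1, -0.43 for LGALS1, -1.19 for OGN, -0.67 for SERPINF1, -0.06 for SERPINH1, -0.84 for SPARC, -0.26 for TIMP2, -0.54 for TIMP3 and -0.74 for VIM. It turned above 0 in 4, to 0.09 for LGALS3, 0.60 for LGALS4, 0.09 for SERPINB1 and 0.22 for SERPINB6. In the same fit the list medians were -0.22 for the TGF-beta pathway, -0.03 for integrin partners, -0.10 for matrix proteases and -0.08 for other matrix proteins. That of collagen processing stayed above 0, at 0.01. With single steers left out, 11 members changed direction at least once, with ranges of -0.38 to 0.54 for IGFBP6, -0.05 to 0.26 for ITGB1, -0.06 to 0.63 for LGALS1, -0.47 to 1.22 for OGN, -0.19 to 0.71 for SERPINF1, -0.04 to 0.32 for SERPING1, -0.23 to 0.72 for SPARC, -0.31 to 0.70 for SPARCL1, -0.28 to 0.82 for THBS4, -0.03 to 0.69 for TIMP3 and -0.20 to 0.52 for VIM. The list medians ranged from -0.11 to 0.07 for the TGF-beta pathway, -0.11 to 0.27 for collagen processing, -0.06 to 0.35 for integrin partners -0.16 to 0.19 for matrix proteases and 0.21 to 0.97 for other matrix proteins. Apart from the steers left out, the cause was not tested. Depth differed from 5412523 to 12278503 reads on genes, and members had at least 59 reads in every steer.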
